A study of Homo sapiens with 6 samples.

Results

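Annexins are proteins that bind acidic phospholipids of cell membranes when calcium rises, through a conserved core of repeats, and each carries its own N-terminal tail. The tail decides many of their partners, such as the S100 proteins, which tie pairs of annexins into complexes. Members of the family organise membrane and actin, take part in vesicle traffic and in the repair of torn plasma membrane, and cover phosphatidylserine, the lipid that dying cells expose. The 10 annexin genes described here are ANXA1, ANXA2, ANXA3, ANXA4, ANXA5, ANXA6, ANXA7, ANXA9, ANXA10 and ANXA11. They were chosen by gene symbol from the 58735 genes of the expression table, and all 10 had a mean of at least 1 FPKM over the libraries.

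RNA was sequenced from HCT116SCs, stem-like cells enriched from the human colorectal cancer line HCT116 and grown as spheres without serum, with EGF, bFGF and B27. In both groups, cells from dissociated spheres received siRNA by liposomal transfection and were harvested 48 h later. The NC group (n = 3 libraries) received negative control siRNA and the siPSCA group (n = 3) received siRNA against PSCA, a lipid-anchored surface antigen, and the comparison asks which transcripts differ once PSCA is targeted. FPKM is fragments per kilobase of gene length scaled to a fixed number sequenced, so it allows for both length and depth. The cells came from a single cell line, the labels do not say which of the listed PSCA siRNAs was used for sequencing, and nothing says that replicates were separate cultures. The p-values therefore measure the spread between these libraries, which may be technical. The titles of siPSCA 2 and siPSCA 3 name HCT117 and HCT118, whereas every other label names HCT116.

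NC libraries held 16145977 to 16884838 reads on genes and siPSCA libraries 16099716 to 17302219. PSCA itself was near the limit of detection, at 0.135, 0.391 and 0.494 FPKM in NC and 0.302, 0.287 and 0.218 in siPSCA. Those ranges overlapped (log2 fold change −0.07, adjusted p = 0.728), so the transcript did not show the knockdown at this depth. Of 9 epithelial markers 8 passed the minimum, with EPCAM at 93.3 to 122.9 FPKM and CD44 at 59.6 to 87.5, whereas VIL1 was near 0. Of these 8, 3 were higher in siPSCA (KRT8, KRT19 and CDX2) and 2 lower (CDH1 and CD44), where 26.6% and 24.2% of all genes tested were. The study selected the cells by CD44 and CD326, the product of EPCAM. CD44 differed by −0.44 on the log2 scale (adjusted p = 0.0019), and by −0.17 once a trend of each library with GC content and gene length was removed (adjusted p = 0.0096). EPCAM passed neither way (−0.16, adjusted p = 0.199, and −0.23 with the trend removed, adjusted p = 0.0792). With the trend removed 1 marker was higher (CDX2) and 3 were lower (CDH1, CD44 and KRT18), where 39.5% of all genes passed either way. The summed FPKM of 5 leukocyte markers was at most 0.443 and that of 4 endothelial markers at most 0.323. The 5 fibroblast markers summed to 3.44 to 5.70 in NC and 6.07 to 6.64 in siPSCA, nearly all of it COL1A1, while LUM was at 0. COL1A1 did not pass (log2 fold change 0.35, adjusted p = 0.111), and stood at −0.01 with the trend removed (adjusted p = 0.941). In the first principal components NC 3 stood apart from NC 1 and NC 2, so results that rest on it are also given without it.

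The family can be seen in its sequence. The calcium-binding loops of annexin repeats share the residues glycine, any, glycine, threonine, and the coding letters GGNNNNGGNACN spell that stretch on the sense strand. Read in frame, they occurred 5 times in ANXA6, which has doubled its repeats, 4 times in ANXA11, 3 times in each of ANXA3, ANXA4, ANXA5 and ANXA7, 2 times in ANXA1 and ANXA2, and once in ANXA10. ANXA9 held none. Of 19523 coding sequences in GENCODE release 29, 14.2% held the letters at least once and 0.533% held them 3 or more times. The 36 coding bases around the match nearest in place to the second match of ANXA5 are shown to let the shared core be compared between members, with the 12 bases of the match in capitals.
ANXA1: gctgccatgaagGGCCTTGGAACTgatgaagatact
ANXA2: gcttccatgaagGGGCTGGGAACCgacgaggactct
ANXA3: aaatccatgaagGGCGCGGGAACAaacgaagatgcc
ANXA4: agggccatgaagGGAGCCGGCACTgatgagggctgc
ANXA5: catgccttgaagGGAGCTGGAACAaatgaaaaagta
ANXA6: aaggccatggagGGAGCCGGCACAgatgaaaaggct
ANXA7: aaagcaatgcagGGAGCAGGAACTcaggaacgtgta
ANXA10: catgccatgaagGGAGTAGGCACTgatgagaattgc
ANXA11: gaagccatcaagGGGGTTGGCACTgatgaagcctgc
Compared with ANXA5, the other 8 members had the same letter at 19 to 26 of the 36 places. Each stretch crosses a splice junction, so its span on GRCh38 includes an intron: chr9:73160365-73160826 in ANXA1, chr15:60357213-60360952 in ANXA2, chr4:78582279-78586283 in ANXA3, chr2:69806487-69807929 in ANXA4 and chr4:121681738-121683375 in ANXA5. The others lie at chr5:151119367-151122158 in ANXA6, chr10:73383322-73383588 in ANXA7, chr4:168162630-168164221 in ANXA10 and chr10:80164120-80166095 in ANXA11. A match describes letters and is not evidence that a loop binds calcium.

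Of the 10 annexins, 5 passed the test between siPSCA and NC: ANXA11 was higher, and ANXA2, ANXA3, ANXA5 and ANXA7 were lower. ANXA1, ANXA4, ANXA6, ANXA9 and ANXA10 did not pass. Passing means an adjusted p under 0.05 in limma on log2(FPKM + 1), over the 13796 genes with a mean of at least 1 FPKM. Of all those genes 50.7% passed, 26.6% higher and 24.2% lower, so the share of annexins that passed lay at the background. The libraries of the groups did not overlap in FPKM for the same 5 annexins, against 64.5% of all genes tested. Leaving out siPSCA 1, 2 or 3 left 2, 1 and 2 annexins passing, ANXA11 each time and ANXA7 without siPSCA 1 or 3. In those fits 33.5%, 34.3% and 39.9% of all genes passed, respectively, so calls were lost across the table as well. The median log2 fold change of the 10 annexins was −0.13, that of all genes tested 0.01, and the median size of the change was 0.20 and 0.30, respectively. In bulk RNA a change in the kinds of cells present and a change in RNA per cell cannot be told apart.

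**Figure D1:**
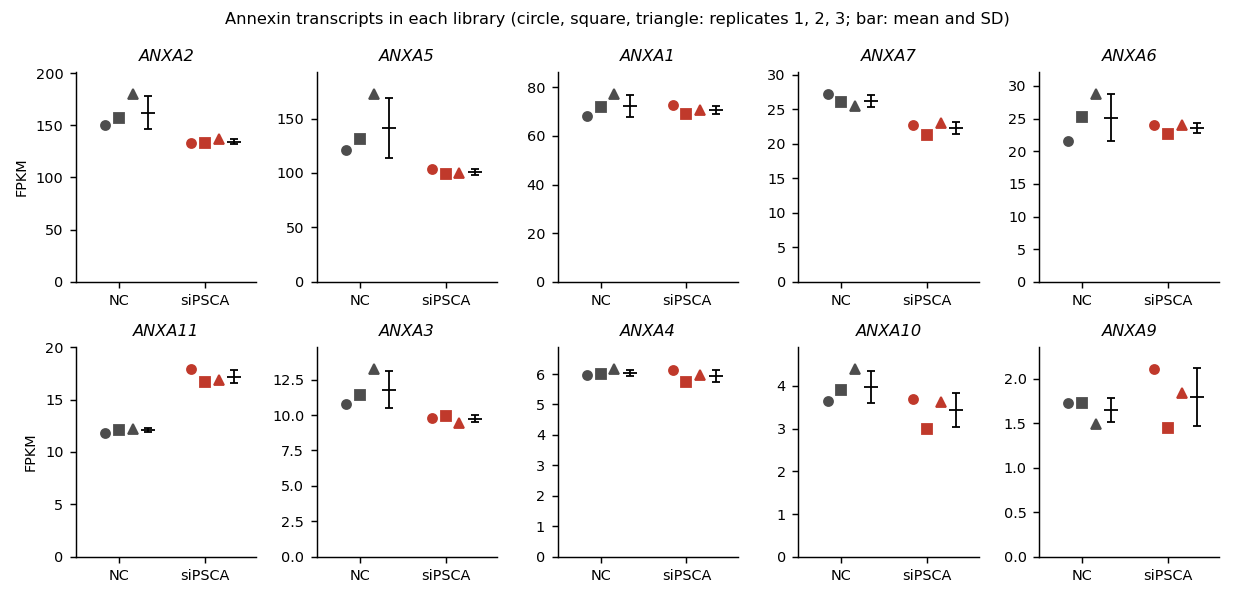
FPKM of the 10 annexins in each library (vertical axes from 0, one panel per gene, ordered by their NC level), for NC in grey and siPSCA in red, with the mean and SD of 3 libraries beside them. ANXA11 lies between 16.7 and 17.9 in siPSCA, above all NC libraries, and ANXA2, ANXA3, ANXA5 and ANXA7 lie below all NC libraries.

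ANXA11 (ENSG00000122359, chr10:80150889-80205572 on GRCh38, minus strand), which has a long tail that binds the calcium sensor PDCD6 and tethers RNA granules to lysosomes, stood at 11.8, 12.1 and 12.2 FPKM in NC 1, 2 and 3. In siPSCA 1, 2 and 3 it stood at 17.9, 16.7 and 16.9 FPKM. Every siPSCA library was above every NC library, and the distance between the groups was far larger than the spread within either. The means were 12.1 ± 0.186 and 17.2 ± 0.629 FPKM (SD, n = 3), a log2 fold change of 0.48 (95% confidence interval 0.36 to 0.59, adjusted p = 0.0013). It kept that direction and its call under all 15 alternatives computed for it, with log2 fold changes from 0.37 to 0.53.

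ANXA5 (ENSG00000164111, chr4:121667955-121697113, minus strand), the phosphatidylserine binder whose labelled protein is used to stain apoptotic cells, stood at 120.8, 130.9 and 172.2 FPKM in NC. In siPSCA it stood at 104.0, 99.5 and 99.7 FPKM. The siPSCA libraries lay close together below all NC libraries, and NC 3 lay far above NC 1 and NC 2. The mean went from 141.3 ± 27.2 to 101.1 ± 2.55 FPKM, the largest fall among the 10 (log2 fold change −0.46, 95% confidence interval −0.78 to −0.15, adjusted p = 0.0262). Without NC 3 the log2 fold change was −0.31 (adjusted p = 0.0026). The call was lost when siPSCA 1, 2 or 3 was left out, with adjusted p = 0.0681, 0.0778 and 0.0723, although the log2 fold change stayed between −0.48 and −0.45.

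ANXA2 (ENSG00000182718, chr15:60347134-60402883, minus strand) links membrane to actin and, in a complex with S100A10, holds plasminogen and its activator at the cell surface. It stood at 150.1, 156.6 and 179.5 FPKM in NC and at 132.9, 133.0 and 136.8 in siPSCA, so the highest siPSCA library was below the lowest NC library. The means were 162.1 ± 15.4 and 134.3 ± 2.24 FPKM, and the log2 fold change was −0.27 (95% confidence interval −0.44 to −0.09, adjusted p = 0.0250). Without NC 3 it was −0.19 (adjusted p = 0.0053). Leaving out siPSCA 1, 2 or 3 ended the call, with adjusted p = 0.0803, 0.0807 and 0.0588.

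ANXA7 (ENSG00000138279, chr10:73375101-73414076, minus strand), also called synexin and known for fusing membranes, stood at 27.2, 26.0 and 25.5 FPKM in NC. Its siPSCA libraries, at 22.7, 21.2 and 23.0 FPKM, were all lower, and here NC 3 was the lowest NC library rather than the highest. The log2 fold change was −0.23 (95% confidence interval −0.35 to −0.10, adjusted p = 0.0145), and the call was lost only without siPSCA 2 (adjusted p = 0.0611) among the 6 fits that each left out a library. ANXA7 shares 3.67% of its exon bases with AL512656.1 on the opposite strand, and the sources used here do not state whether counting used strand.

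ANXA3 (ENSG00000138772, chr4:78551519-78610451, plus strand) stood at 10.7, 11.4 and 13.2 FPKM in NC and at 9.80, 9.96 and 9.46 FPKM in siPSCA. The groups did not overlap, but the gap between the nearest libraries was narrower than the spread within NC. Its log2 fold change was −0.25 (95% confidence interval −0.44 to −0.05, adjusted p = 0.0411), the call nearest to the threshold. It did not pass without NC 2 (adjusted p = 0.0758) or without siPSCA 1, 2 or 3 (0.103, 0.0919 and 0.115).

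ANXA1 (ENSG00000135046, chr9:73151757-73170393, plus strand), a ligand of formyl peptide receptors that dampens inflammation and binds S100A11, stood at 68.1, 71.9 and 77.1 FPKM in NC. In siPSCA it stood at 72.6, 69.0 and 70.5 FPKM, within the NC range. The log2 fold change was −0.03 (95% confidence interval −0.17 to 0.11, adjusted p = 0.668). ANXA4 (ENSG00000196975, chr2:69644425-69827100, plus strand), which forms lattices on epithelial membranes, stood at 5.95, 5.998 and 6.15 FPKM in NC and at 6.14, 5.72 and 5.95 in siPSCA. These libraries overlapped too, with a log2 fold change of −0.02 (95% confidence interval −0.15 to 0.10, adjusted p = 0.763). In this fit the intervals of both genes exclude a change as large as that of ANXA5 or ANXA11.

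ANXA6 (ENSG00000197043, chr5:151100712-151157882, minus strand), the member with a doubled core, lay between 21.5 and 28.7 FPKM in NC and between 22.6 and 24.04 in siPSCA. Here too the siPSCA values fell inside the NC range, and the log2 fold change was −0.08 (95% confidence interval −0.33 to 0.17, adjusted p = 0.526). ANXA10 (ENSG00000109511, chr4:168092515-168187690, plus strand), better known from gastric epithelium, was low, at 3.65, 3.90 and 4.39 FPKM in NC and 3.69, 2.98 and 3.64 in siPSCA. Its log2 fold change was −0.17 (95% confidence interval −0.40 to 0.06, adjusted p = 0.180). ANXA9 (ENSG00000143412, chr1:150982017-150995634, plus strand), a member whose calcium sites are degenerate, was the lowest at 1.73, 1.73 and 1.49 FPKM in NC and 2.10, 1.45 and 1.83 in siPSCA. With 47 to 65 reads per library its interval ran from −0.20 to 0.34 around a log2 fold change of 0.07 (adjusted p = 0.622).

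With FPKM compared by a 2-sided exact permutation test, each of the 5 genes without overlap had p = 0.1, the smallest that 3 libraries against 3 can give. For ANXA1, ANXA4, ANXA6, ANXA9 and ANXA10 the exact p was 0.7, 0.4, 0.5, 0.5 and 0.2.

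Several of these differences ran with base composition. Over the 13796 genes tested, the log2 fold change rose with the GC content of the exons (Spearman's rho 0.669 across genes, which share their libraries and are not independent). Genes with 35 to 40% GC had a median log2 fold change of −0.34, those with 40 to 45% one of −0.19, those with 50 to 55% one of 0.15, and those with 55 to 60% one of 0.35. ANXA1 and ANXA10 lay in the first of these classes, at 36.9% and 37.7% GC, ANXA2, ANXA3, ANXA4, ANXA5 and ANXA7 in the next, at 42.9% to 44.6%, ANXA6 and ANXA11 at 52.7% and 52.6%, and ANXA9 at 55.2%. Thus ANXA2, ANXA3 and ANXA7 were close to the median of genes of like composition, ANXA5 was below it and ANXA11 above it. ANXA1, at −0.03, was above the median of its class, and ANXA6 and ANXA9 were below theirs.

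**Figure D2:**
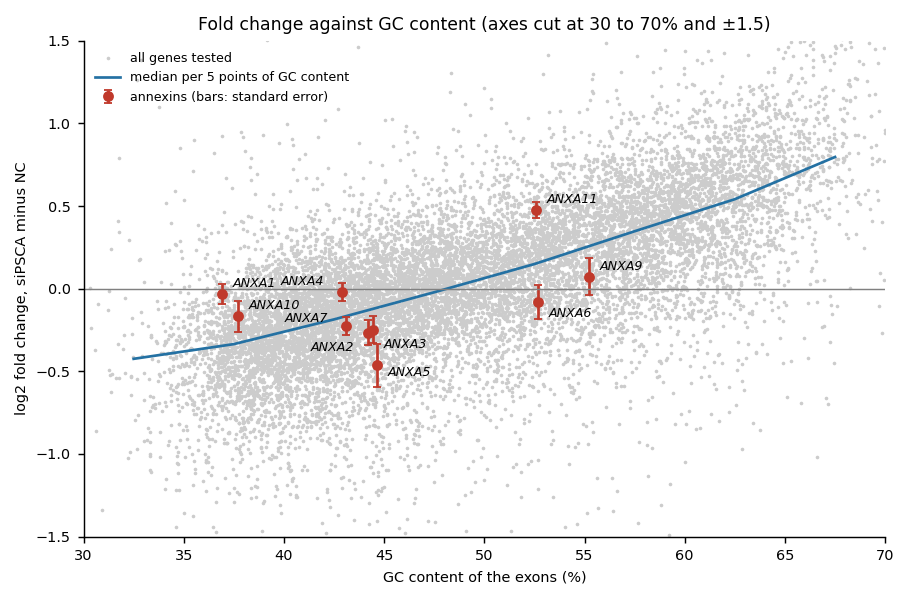
Log2 fold change (siPSCA minus NC, vertical axis) against GC content of the exons (%, horizontal axis) for all genes tested in grey and the 10 annexins in red with standard errors, with the median per 5 points of GC content as a line. ANXA11, at 52.6% GC, lies above the line, ANXA5, at 44.6%, lies below it, and ANXA2, ANXA3 and ANXA7 lie near it.

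When the trend of each library on GC content and gene length was removed before the fit, ANXA5 and ANXA11 kept their calls and ANXA2, ANXA3 and ANXA7 did not. ANXA11 was then higher by a log2 fold change of 0.37 (adjusted p = 0.0017) and ANXA5 lower, at −0.39 (adjusted p = 0.0310). ANXA2 stood at −0.09 (adjusted p = 0.202), ANXA3 at −0.13 (adjusted p = 0.128) and ANXA7 at −0.09 (adjusted p = 0.263). In that fit ANXA1 and ANXA4 passed as higher in siPSCA, with log2 fold changes of 0.27 (adjusted p = 0.0044) and 0.23 (adjusted p = 0.0132), against values near 0 without the correction. So 4 of 10 annexins passed, beside 39.5% of all genes, and the direction of ANXA1, ANXA4, ANXA9 and ANXA10 depended on this choice. The same 4 genes passed when NC 3 was left out as well. The part of GC content in the differences was not tested.

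**Figure D3:**
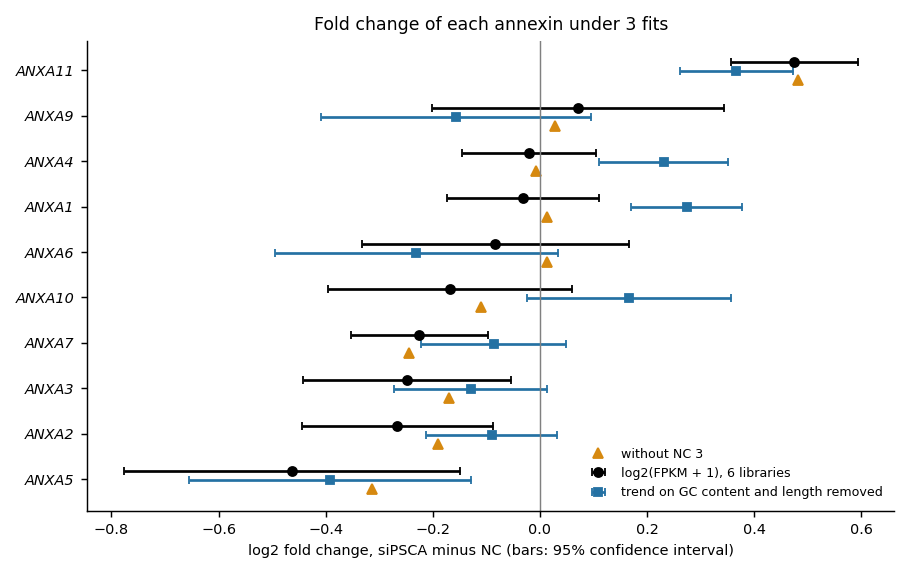
Log2 fold change (horizontal axis, siPSCA minus NC) of each annexin with its 95% confidence interval in the fit to all 6 libraries (black) and with the GC and length trend taken out (blue), and without NC 3 (orange, no interval drawn). ANXA11 is right of 0 and ANXA5 left of 0 in all 3, whereas the intervals of ANXA2, ANXA3 and ANXA7 reach 0 once the trend is removed.

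NC 3 touched most of the family. It was the highest NC library for 8 of the 10 annexins and the lowest for ANXA7 and ANXA9, while of the 13796 genes tested it was the highest for 41.3% and the lowest for 5975. Over those genes the distance of NC 3 from the mean of NC 1 and NC 2 ran against GC content (Spearman's rho −0.567 across genes), and 7 annexins have under 45% GC. On the log2(FPKM + 1) scale ANXA5 was 0.45 higher in NC 3 than in the mean of NC 1 and NC 2, ANXA6 0.29 higher and ANXA4 0.04 higher. Leaving NC 3 out kept all 5 calls.

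Summed over the 10 annexins, NC libraries held 421.7, 445.9 and 520.5 FPKM and siPSCA libraries 395.8, 382.2 and 391.8 FPKM. All siPSCA sums were below all NC sums, and the mean was 15.7% lower (462.7 ± 51.5 against 389.9 ± 7.03 FPKM, exact permutation p = 0.1). The size of that difference leaned on NC 3: the log2 ratio of the means was −0.25 with all 6 libraries and −0.15 without NC 3. The family took 0.253% to 0.303% of the reads on genes in NC and 0.237% to 0.242% in siPSCA. The make-up of the sum also differed. ANXA5 made up 30.4% ± 2.38 of it in NC and 25.9% ± 0.432 in siPSCA, and ANXA11 2.62% ± 0.248 and 4.4% ± 0.105, in both cases without overlap of libraries (exact permutation p = 0.1). The shares of ANXA1 (15.7% to 18.1%), ANXA6 (5.43% to 6.04%) and ANXA4 (1.31% to 1.52%) were also higher without overlap, although their own FPKM overlapped, since shares of 1 sum are tied to each other. ANXA2 made up 35.1% ± 0.558 and 34.4% ± 0.743, which overlapped.

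By level, ANXA2, ANXA5 and ANXA1 made up 81.1% ± 1.09 of the sum in NC. ANXA2 and ANXA5 overlapped in NC, as did ANXA7 with ANXA6 and ANXA11 with ANXA3, and ANXA4, ANXA10 and ANXA9 followed in that order without overlap. In siPSCA ANXA2 stood clear of ANXA5 and ANXA11 clear of ANXA3, and only ANXA6 and ANXA7 overlapped. In NC, ANXA2 was above 98.9% of the 11079 coding genes tested, ANXA5 above 98.7% and ANXA1 above 97.0%, whereas ANXA9 was above 8.46%. These levels depend on the length they are divided by, because the table uses the union of all annotated exons. For ANXA2 that union is 8824 bases, while its principal coding transcript has 1676. Per kilobase of principal transcript, a measure chosen after seeing the data, the order in both groups was ANXA2, ANXA5, ANXA1, ANXA6, ANXA3, ANXA7, ANXA4, ANXA11, ANXA10 and ANXA9, with no neighbours overlapping. Where principal transcripts tied in coding length the longest was used. The transcript used for ANXA11 has 6965 bases, against 1657 in ANXA3, 2452 in ANXA7 and 2799 in ANXA4, so its place below them depends on that choice. All reads of a gene are divided by that 1 length, also reads on exons outside the transcript. On that scale ANXA2 stood at 853 ± 81.3 in NC and 707 ± 11.8 in siPSCA, well above ANXA5 at 243 ± 46.9 and 174 ± 4.39.

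**Figure D4:**
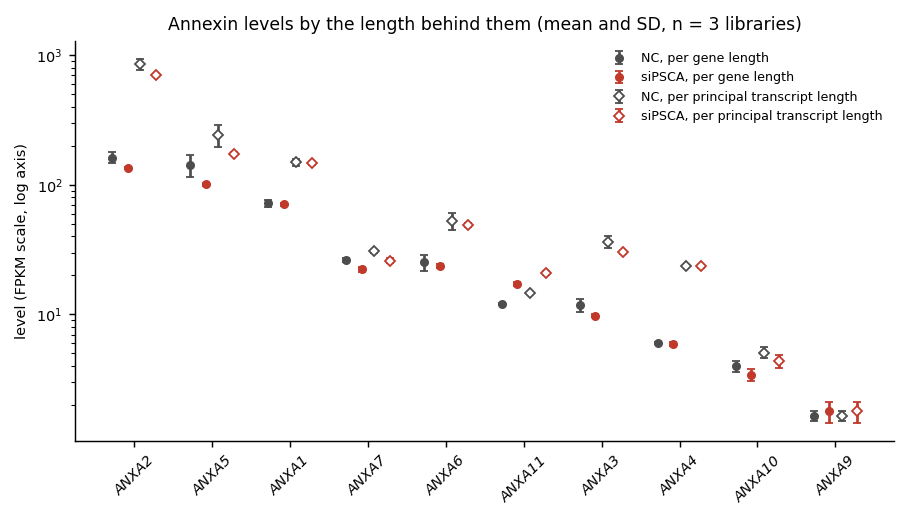
Level of each annexin (FPKM scale, logarithmic vertical axis, mean and SD of 3 libraries) in NC (grey) and siPSCA (red), divided by the gene length of the table (filled) or by the length of the principal transcript (open). ANXA2 leads on both scales, and ANXA3 and ANXA4 move above ANXA11 on the second, where ANXA11 is divided by a transcript of 6965 bases.

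ANXA2 has processed pseudogenes, intronless copies of its RNA, and one of them was read as strongly as many genes. ANXA2P2 (ENSG00000231991, chr9:33624274-33625293, plus strand, 1020 bases) stood at 84.3, 86.0 and 89.1 FPKM in NC and 68.6, 75.6 and 69.9 in siPSCA. All siPSCA libraries were below all NC libraries (log2 fold change −0.27, adjusted p = 0.0084). Its sequence equals the ANXA2 coding sequence with its stop codon at 98.4% of 1020 places, with 16 differences and a longest identical run of 221 bases. The stretch of coding bases 161 to 220 holds 5 of those differences, in capitals, counted from 1 at the first coding base: T178G, A190G, G191A, C215T and G220T, with the ANXA2 base first. It is shown because within the coding sequence only such places separate the transcripts. On GRCh38 it lies at chr15:60364452-60364511 (minus strand) in ANXA2 and chr9:33624434-33624493 (plus strand) in ANXA2P2.
ANXA2: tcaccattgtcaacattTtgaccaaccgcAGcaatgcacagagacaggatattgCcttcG
ANXA2P2: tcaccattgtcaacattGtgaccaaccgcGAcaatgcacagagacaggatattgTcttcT
Of all windows of 50 bases in the principal ANXA2 transcript, 35.3% also occur in ANXA2P2. The split of reads between ANXA2 and ANXA2P2 is therefore uncertain. Reads assigned to ANXA2P2 equalled 6.19% ± 0.401 of those assigned to ANXA2 in NC and 6.15% ± 0.370 in siPSCA (exact permutation p = 1.0). With both added together the log2 fold change of ANXA2 was −0.27 (adjusted p = 0.0225). Because ANXA2P2 held few reads and had a like fold change, this sum could hardly differ from ANXA2 alone. It does not cover reads that may have been dropped for matching both genes. ANXA8, ANXA2P1 and ANXA2P3 held at most 10 reads in a group, and ANXA8L1 and ANXA13 none, which allows up to 3 reads in a library.

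Genes that work with annexins were read from 5 lists, 53 genes in all, of which 38 passed the minimum of 1 FPKM. Of these 14 were higher and 10 lower in siPSCA, 63.2% together, beside 50.7% of all genes tested. In the fit with the GC and length trend removed 22 passed, where 39.5% of all genes did, and 15 passed in both fits in the same direction.

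**Figure D5:**
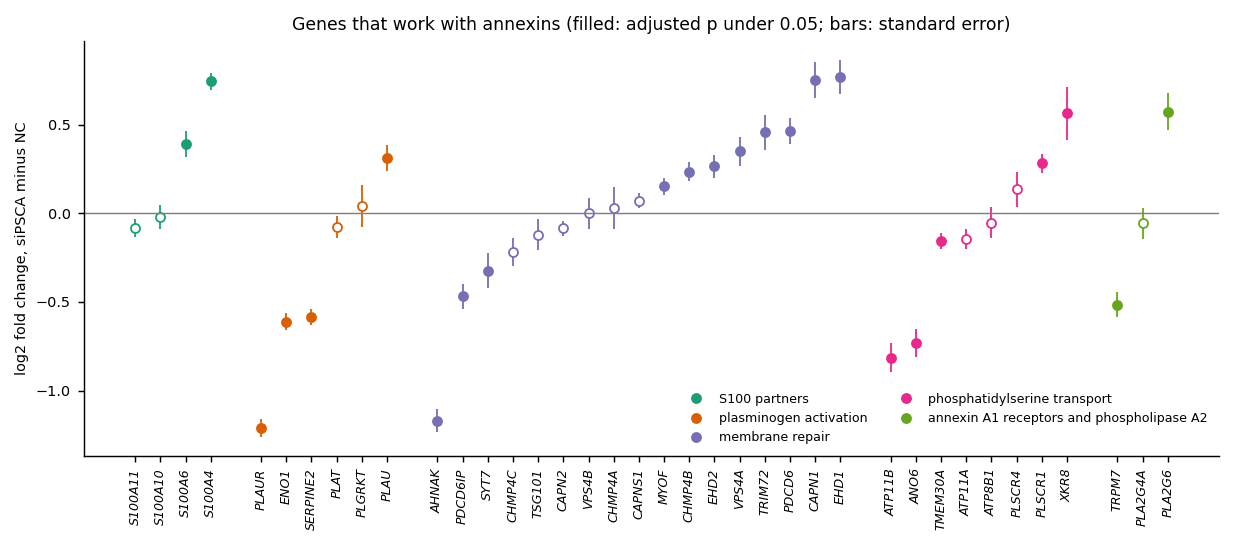
Log2 fold change (vertical axis, siPSCA minus NC) with standard error of the 38 tested genes of 5 annexin-related lists, with genes that passed filled. PLAUR and AHNAK lie below −1, while S100A10 and S100A11 lie near 0.

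Of the S100 partners 4 were measured, 2 passed as higher and none as lower (median log2 fold change 0.19), and with the trend removed 1 was higher and 1 lower, with a median of −0.07. The shares of all genes tested were 26.6% higher and 24.2% lower, and 39.5% either way with the trend removed. S100A10, which joins pairs of ANXA2, lay between 101.9 and 118.7 FPKM in NC and between 103.5 and 111.5 in siPSCA. It overlapped fully, unlike ANXA2 (log2 fold change −0.02, adjusted p = 0.812), although with the GC and length trend removed it passed as lower (−0.17, adjusted p = 0.0424). S100A11, the partner of ANXA1, differed by −0.08 on the log2 scale (adjusted p = 0.202). S100A4 lay between 220.5 and 230.8 FPKM in NC and rose to between 364.9 and 396.7 in siPSCA (log2 fold change 0.75, adjusted p = 0.00047). S100A6, a partner of ANXA11 among others, was higher by 0.39 (adjusted p = 0.0074), but its value was 0.01 with the trend removed (adjusted p = 0.958).

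Around the plasminogen system that ANXA2 serves, 1 of 6 measured genes was higher and 3 were lower, with a median log2 fold change of −0.33 (−0.26 with the trend removed, when 0 were higher and 3 lower). For all genes tested the shares were 26.6% higher and 24.2% lower, and 39.5% either way with the trend removed. PLAUR, the receptor of urokinase, stood at 24.6, 23.7 and 25.7 FPKM in NC and at 10.4, 10.04 and 9.86 in siPSCA. Its groups were far apart, with a log2 fold change of −1.21 (adjusted p = 0.00013). ENO1, a glycolytic enzyme that also binds plasminogen at the surface, fell by 0.61 on the log2 scale (adjusted p = 0.00073), and SERPINE2, an inhibitor of serine proteases, fell by 0.58 (adjusted p = 0.00070). PLAU, urokinase itself, was higher by 0.31 (adjusted p = 0.0148), a call that was lost with the trend removed (0.08, adjusted p = 0.423). The members that were lower thus include both a receptor and an inhibitor. PLG, the gene of plasminogen, was near 0 in all libraries.

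Among 17 measured genes of plasma membrane repair, 8 were higher and 3 lower (median 0.07), where 26.6% and 24.2% of all genes tested were, and 6 and 5 with the trend removed (median −0.02), where 39.5% of all genes passed either way. AHNAK, the giant scaffold bound by ANXA2 and S100A10, stood at 96.8, 98.3 and 108.6 FPKM in NC and at 42.7, 43.4 and 46.9 in siPSCA. That was the largest change of the list (log2 fold change −1.17, adjusted p = 0.00028), and it was −1.10 with the trend removed. PDCD6, the calcium sensor that binds ANXA11 and ANXA7, stood at 7.64, 7.09 and 6.34 FPKM in NC and at 10.4, 9.80 and 9.90 in siPSCA. It was higher by 0.46 (adjusted p = 0.0040), like ANXA11 and unlike ANXA7, which was lower. Besides AHNAK the lower genes were PDCD6IP, at −0.47 (adjusted p = 0.0032), and SYT7, at −0.32 (adjusted p = 0.0357). With the trend removed PDCD6IP stood at −0.12 (adjusted p = 0.0487) and SYT7 at −0.77 (adjusted p = 0.00020). EHD1, a membrane-shaping ATPase, and CAPN1, the catalytic part of calpain 1, were higher by 0.77 and 0.75 (adjusted p = 0.0019 and 0.0024), and by 0.30 and 0.32 with the trend removed. MYOF, a dysferlin relative, was higher by 0.15 (adjusted p = 0.0366). EHD2, a relative of EHD1, turned from higher, at 0.27 (adjusted p = 0.0166), to lower, at −0.25, with the trend removed (adjusted p = 0.0443).

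Genes that set which face of the membrane holds phosphatidylserine, the lipid that ANXA5 covers, gave 2 higher and 3 lower of 8 measured (median −0.10), and 3 and 3 with the trend removed (median 0.07). Among all genes tested 26.6% were higher and 24.2% lower, and 39.5% passed either way with the trend removed. The flippase gene ATP11B stood at 13.9, 13.4 and 16.3 FPKM in NC and at 7.57, 7.88 and 7.95 in siPSCA (log2 fold change −0.81, adjusted p = 0.0012). ANO6, a calcium-activated scramblase, fell by 0.73 (adjusted p = 0.0014). With the trend removed both still passed as lower, with smaller log2 fold changes of −0.45 and −0.46. TMEM30A, a subunit that ATP11B and its relatives need, was lower, at −0.15 (adjusted p = 0.0274), and higher, at 0.15, with the trend removed (adjusted p = 0.0270). XKR8, a scramblase switched on by caspases, was higher by 0.57 (adjusted p = 0.0218), and by 0.03 with the trend removed (adjusted p = 0.739). PLSCR1 passed as higher in both fits, by 0.28 (adjusted p = 0.0081) and by 0.58 with the trend removed (adjusted p = 0.00033).

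Of the receptors and phospholipases tied to ANXA1, 3 of 8 were measured, 1 higher and 1 lower, and none passed with the trend removed. Beside them, 26.6% of all genes tested were higher and 24.2% lower, and 39.5% passed either way with the trend removed. The formyl peptide receptor genes FPR1, FPR2 and FPR3 were at most 0.172 FPKM in any library. PLA2G4A, the cytosolic phospholipase that ANXA1 restrains, differed by −0.06 on the log2 scale (adjusted p = 0.618). TRPM7, a channel kinase that phosphorylates ANXA1, fell by 0.51 (adjusted p = 0.0028), against −0.13 with the trend removed (adjusted p = 0.0540).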

How the data were processed

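Expression had been computed by the authors as FPKM, deposited for 58735 genes on GRCh38. The gene positions and lengths were those of GENCODE release 29. The aligner, the counting program and the strand setting are not given in the sources used here. Multiplying FPKM by length gave whole multiples of a library-specific step for 100% of values (tolerance 1e-06), so reads were recovered for an alternative fit. Samples were grouped by their labels.

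Genes with a mean of at least 1 FPKM over the 6 libraries (13796) were fitted with limma 3.58.1 (lmFit, eBayes with trend, R 4.3.3) on log2(FPKM + 1) without covariates beside the group, and p-values were adjusted by Benjamini and Hochberg over all of them. Fold changes are on that scale and understate those of low genes. PSCA came from the same model over the 34391 genes with a read. The trend of each library on GC content and log2 length was removed with natural splines (5 degrees of freedom each). Alternatives changed the pseudocount, minimum, scaling, test, block or libraries. The fit was tested on simulated data. It called 164 of 200 genes changed by 1 on the log2 scale and 0 of 200 changed by 0.5. That setting differs from these data, where 50.7% of genes passed, so power for the annexins was not measured. Sequences were read from GRCh38 and GENCODE release 29, and windows had 50 bases. Counting error alone is covered by the floor of 3 reads. Named genes were all 10 annexins, PSCA, the markers, and from each related list those that bind an annexin or passed with large changes, besides some that were chosen after their values were seen. Some genes of the related lists are not reported here and were left out of the counts and medians of those lists. The annexins and lists were chosen with earlier results of these data known.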

Additional observations from a re-analysis of the deposited data

How the results depend on the processing

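Members called numbered 5 (1 higher, 4 lower) and remained so with a pseudocount of 0.1, a minimum of 5 FPKM, TPM, median-of-ratios scaling, limma-voom on recovered reads and ANXA2P2 reads added to ANXA2 (chosen after seeing the data). At the minimum of 5 FPKM only 8 annexins were tested, and 63.2% of all genes tested passed. With no minimum 2 were called, 1 of them lower, beside 16.3% of the 34391 genes then tested. With the GC and length trend removed 3 were higher and 1 lower, as also when NC 3 was left out too (chosen after seeing the data). Leaving out each library in turn gave 1 to 5 called and 0 to 4 lower, and 4627 (without siPSCA 1) to 7425 (without NC 3) of all genes called. It gave 2 annexins without siPSCA 1 or 3, beside 33.5% and 39.9% of all genes, and 1 without siPSCA 2, beside 34.3%.

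Among the annexins, directions turned only for the 5 that were not called in the main test. With the trend removed, and with NC 3 left out as well, ANXA1 stood at 0.27 and 0.29, ANXA4 at 0.23 and 0.21, ANXA9 at −0.16 and −0.15, and ANXA10 at 0.17 and 0.19 on the log2 scale. ANXA4 stood at 0.0031 with limma-voom and, over the fits that left out a library, at −0.0409 to 0.0020, ANXA9 at −0.0077 to 0.16, ANXA1 at −0.0746 to 0.0136 and ANXA6 at −0.19 to 0.0130. The cause was not tested.

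Same-numbered NC and siPSCA libraries deviated together with r = 0.0955, 0.0132 and 0.134, so the numbers were not taken to pair them. With the replicate number as a block 4 annexins were called, 1 higher and 3 lower, ANXA3 being lost (adjusted p = 0.0675), and 6725 of all genes. Of all genes, 3668 were higher and 3333 lower, against 4164 and 3224 with limma-voom and 3302 and 3480 with TPM.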
